A study of Mus musculus with 4 samples.

Results

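A set of 10 genes of muscle wasting and its control was followed in start site libraries of mouse skeletal muscle, and 9 of them had reads. They are the muscle RING finger ubiquitin ligases Trim63 (MuRF1), Trim54 (MuRF3) and Trim55 (MuRF2), the ubiquitin ligase subunit Fbxo32 (atrogin-1), the transcription factors Foxo1, Foxo3 and Foxo4, the growth inhibitor Mstn (myostatin), the transcription factor Klf15 and the ubiquitin ligase Cblb. The genes were chosen by name, and all rows of the deposited table with these symbols were taken. They made up 78 of 42207 sites and 9 of 9838 genes, and no site was listed for Klf15.

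The libraries came from skeletal muscle of adult C57BL/6 male mice, 1 library per mouse, 2 with AMPKα2 knocked out in the whole animal (AMPKα2-/-, KO) and 2 wild-type (WT) controls. The study describes the muscle as gastrocnemius and the knockout as a deletion within the catalytic domain of AMPKα2, a catalytic subunit of the energy-sensing AMP-activated protein kinase. In WTSS-seq (whole transcriptome start site sequencing), RNA depleted of ribosomal RNA is copied with a switch of template at its 5′ end and sequenced from there. A read therefore marks where an RNA, or a fragment of one, begins, and nearby read ends were clustered by the authors into sites (alternative start sites, ASSs).

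When muscle is unused, starved or exposed to glucocorticoids, FoxO transcription factors enter the nucleus and raise transcription of ubiquitin ligases, among them MuRF1 and atrogin-1, which mark muscle proteins for the proteasome. Insulin and IGF1 oppose this through the kinase AKT, which keeps FoxO proteins in the cytoplasm, while myostatin signals through activin receptors and SMAD proteins to limit muscle growth. FoxO3 is also a known substrate of AMPK.

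Library totals ran from 1300069 to 2900279 reads, the KO libraries were the larger ones, and the 3 reads that a count of 0 allows, for counting error only, were 1.03 to 2.31 ppm of a library. The targeted gene, Prkaa2, had 149 and 183 normalized counts in KO against 153 and 186 in WT, so its summed reads gave no check of the labels. All 10 skeletal muscle markers that were examined had reads in every library, the lowest at 279.8 normalized counts. Of the reads outside mitochondrial and ribosomal RNA, 36.0% and 28.2% were intronic in KO against 32.6% and 25.5% in WT, so that replicate 1 of either genotype held more intronic reads than replicate 2.

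To ask whether the loss of AMPKα2 went along with a change in these genes, reads were summed per gene and KO was compared with WT. Trim63, the gene of the ubiquitin ligase MuRF1 that binds the sarcomere, was lower in KO. The other 8 genes with reads did not pass the test. The median log2 fold change of the 9 genes was -0.05, with 4 of them above 0, against 0.01 over all 4688 genes tested, of which 50.5% were above 0. Trim63 had 48 and 44 reads in the KO replicates 1 and 2 and 72 and 136 reads in WT replicates 1 and 2, although the KO libraries held more reads in all. These were 16.6 and 19.1 ppm of the KO libraries and 55.4 and 86.7 ppm of the WT libraries. After normalization, Trim63 had 29.3 and 38.4 counts in KO against 101 and 169 in WT, or 33.9 ± 6.46 against 135 ± 48.4 (SD, n = 2). Both KO libraries lay below both WT libraries.

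Trim63 was 4.0-fold lower in KO, with a log2 fold change of -2.001 (SE 0.62, 95% interval -3.22 to -0.78) and a DESeq2 adjusted p of 0.0620 over 4688 genes tested. It ranked 95 of 4688 genes by p-value. In this comparison 2.67% of all genes tested were called at an adjusted p under 0.1, and 0.96% were called lower in KO. The call was not made by edgeR, whose adjusted p was 0.166 over 6115 genes with a log2 fold change of -2.02, nor when any of the 4 libraries was left out, where the group with 1 library left had to be taken to vary like the other group. Without KO replicate 1, KO replicate 2, WT replicate 1 and WT replicate 2 in turn, the log2 fold change was -1.81, -2.20, -2.32 and -1.61, and the DESeq2 adjusted p was 0.808, 0.399, 0.169 and 0.850.

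**Figure D1:**
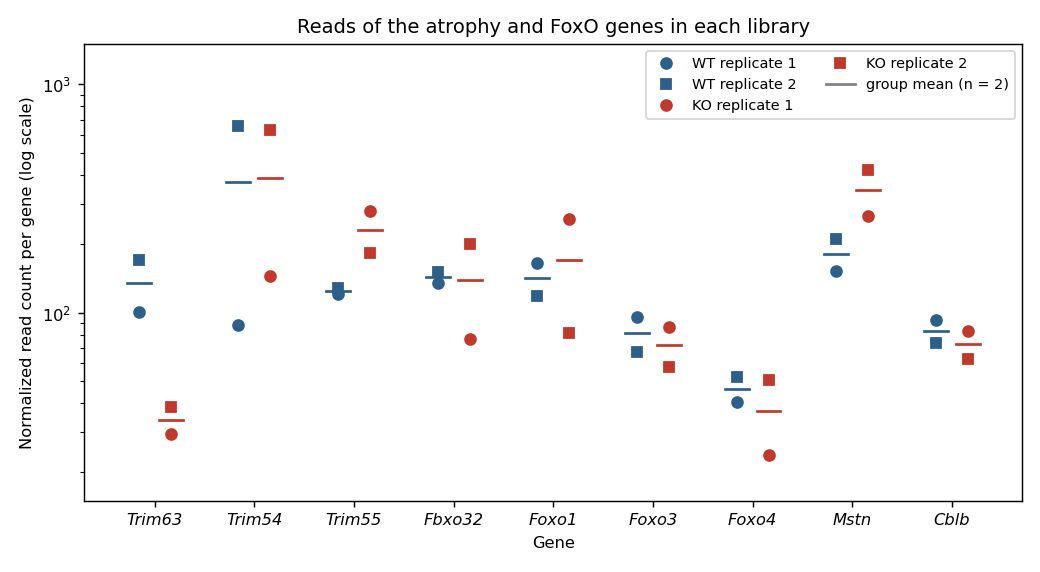
Normalized read counts summed per gene (log scale) for the 9 genes with reads, with 1 point per library (red, KO; blue, WT; circles, replicate 1; squares, replicate 2) and bars at the group means. The Trim63 points of KO, 29.3 and 38.4, lie below those of WT, 101 and 169, and those of Trim54 are split by replicate.

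The reads of Trim63 began at 5 sites on the plus strand of chromosome 4, where RefSeq places the gene at 134315120 to 134329629. The main site, at 134315110 to 134315146, had its peak 9 bases before the annotated start and held 45.7% of the reads of the gene. The promoter is printed because both the reads and a FoxO motif fall within it. It is the plus strand of GRCm38.p6 (RefSeq) at chr4:134314910-134315149, from 210 bases before the annotated start to 30 bases into the gene. The capitals mark a FoxO motif, then a TATA box, then the single base at which the reads of the main site peaked:

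Trim63: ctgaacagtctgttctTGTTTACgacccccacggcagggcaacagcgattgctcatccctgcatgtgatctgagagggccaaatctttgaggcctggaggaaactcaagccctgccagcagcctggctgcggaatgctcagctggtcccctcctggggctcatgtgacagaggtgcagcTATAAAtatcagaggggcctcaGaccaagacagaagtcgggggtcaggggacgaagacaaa

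The FoxO motif was searched as GTAAACA on both strands, from 250 bases before to 50 bases after the annotated start. It was found on the opposite strand of Trim63, as TGTTTAC at 134314926 to 134314932. Of the 7 genes whose promoter was in the RefSeq table (Trim63, Trim54, Foxo1, Foxo3, Mstn, Klf15 and Cblb), 1 held these letters. Of all 32851 promoters, 3.65% did. TATAAA on the strand of the gene was found in Trim63 and Mstn, and in 8.32% of all promoters. The members were counted per gene and the shares over all per promoter, so they are not in the same unit. These matches describe the sequence and do not show binding.

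The main site of Trim63 had 29 and 17 reads in KO against 31 and 60 reads in WT, giving a log2 difference of -1.72 (SE 0.92) and an adjusted p of 0.575 over 11112 sites with DESeq2. The site 13878 bases into the gene had 1 and 8 reads in KO against 13 and 27 in WT, giving -2.72 on the log2 scale (SE 1.45), with 0.574 as the DESeq2 adjusted p. Both sites overlapping an exon and an intron had log2 fold changes below 0 as well. The one 10479 bases into the gene, second in total reads, had 10 and 14 in KO against 18 and 17 in WT (-1.25, SE 1.24), and the one at 12586 bases had 8 and 4 against 7 and 21 (-1.95, SE 1.49). The fifth site, 63 bases after the start, had 0 and 1 reads in KO against 3 and 11 in WT and had too low a mean to be tested. At all 5 sites both KO libraries were below both WT libraries after normalization, a pattern seen at 17.4% of all tested sites, but the sites share their gene and none passed the test alone. The main site held 60.4% and 38.6% of the KO reads of Trim63 against 43.1% and 44.1% of the WT reads.

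**Figure D2:**
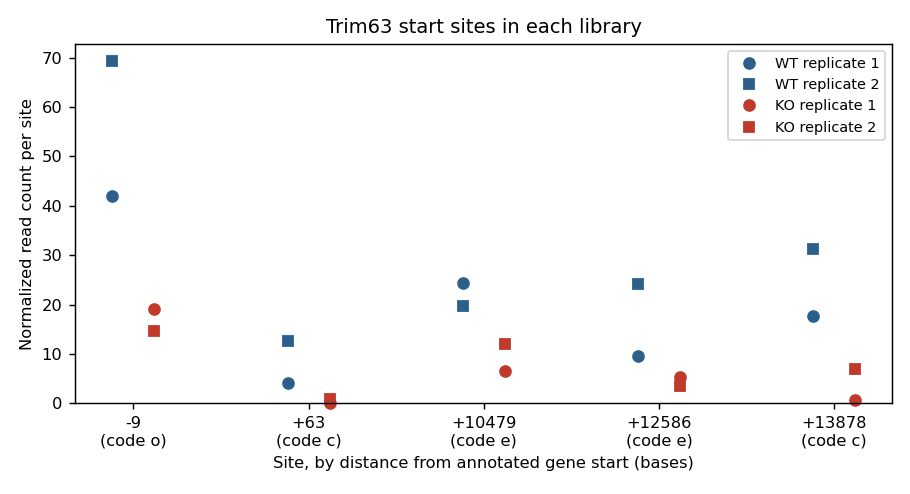
Normalized read counts at the 5 Trim63 sites, ordered by the distance of their peak from the annotated start in bases, with 1 point per library and the class code of the site under it (o and c, exonic; e, exon and intron). Red KO points lie below blue WT points at each site, with the largest WT values, 42.1 and 69.3, at the main site.

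The other muscle RING finger genes did not pass the test. Trim55 (MuRF2, a sarcomere-associated relative of MuRF1) had 279 and 183 normalized counts in KO against 121 and 128 in WT. Both KO libraries were above both WT libraries, but the log2 fold change of 0.89 (SE 0.51, 95% interval -0.11 to 1.89) did not pass the test (DESeq2 adjusted p 0.638). Of its reads, 93.7% were intronic, at 9 of its 11 sites. An intronic site at 19687891 to 19687902 of chromosome 3 took 352 of the 456 reads in KO replicate 1, with 73 reads in KO replicate 2 and 22 and 62 in WT. Its DESeq2 adjusted p was 0.606. Another intronic site at 19678191 to 19678194 had 65 and 87 reads in KO against 25 and 14 in WT (DESeq2 adjusted p 0.894). With intronic sites left out, the log2 fold change of Trim55 was -0.36 over the few reads that remained, so that its direction rested on intronic reads.

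Trim54 (MuRF3, a ligase that binds microtubules in muscle) was divided by replicate and not by genotype. It had 144 and 633 normalized counts in KO against 88.3 and 655 in WT, so that replicate 2 was the higher one in both groups and the groups overlapped. The log2 fold change was 0.06 with an SE of 1.47, and the 95% interval from -2.82 to 2.95 spanned wide differences in both directions. Nearly all reads came from a site at the start of the gene on chromosome 5, at 31116588 to 31116787, with 82.2% and 94.9% of the KO reads against 81.0% and 95.8% of the WT reads. The next site, at 31116827 to 31116870, had 10 and 25 reads in KO against 5 and 18 in WT (log2 fold change 0.02, SE 1.37). The first bases of the main site are shown beside the Mstn promoter, as both genes had their main site within 1000 bases of the annotated start. These sites peaked 91 bases after the start in Trim54 and 222 bases after it in Mstn. The printed Mstn bases end before its main site begins. In the plus strand of Trim54 (chr5:31116572-31116641), the capitals mark the bases inside this site, which began before the annotated start. In the plus strand of Mstn (chr1:53061600-53061669), they mark the TATA box. Both run from 40 bases before the start to 30 bases into the gene:

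Trim54: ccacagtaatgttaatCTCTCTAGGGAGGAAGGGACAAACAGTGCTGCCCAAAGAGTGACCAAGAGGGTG

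Mstn: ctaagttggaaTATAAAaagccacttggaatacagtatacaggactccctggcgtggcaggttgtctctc

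Mstn, which encodes the secreted inhibitor of muscle growth, had 435 and 481 reads in KO against 108 and 169 reads in WT. These were 266 and 420.3 normalized counts in KO against 151 and 210.5 in WT, or 343 ± 109 against 181 ± 41.7 (SD, n = 2). Both KO libraries were above both WT libraries. The log2 fold change of 0.92 (SE 0.49, 95% interval -0.05 to 1.89) did not pass the test, as the adjusted p was 0.557 by DESeq2 and 0.560 by edgeR. Mstn and Trim55 were the only members with both KO libraries higher, 2 of 9, against 22.0% of all genes tested, and Trim63 was the only one with both lower, against 19.4%. Mstn had 4 exonic sites on chromosome 1 and no intronic one. The site 222 bases after the annotated start (53061816 to 53062063) and the site in the last part of the gene (53067587 to 53067742) had nearly the same log2 fold change, 1.03 (SE 0.67) and 1.02 (SE 0.70). The first held 55.6% and 65.7% of the Mstn reads in KO against 55.6% and 66.3% in WT.

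**Figure D3:**
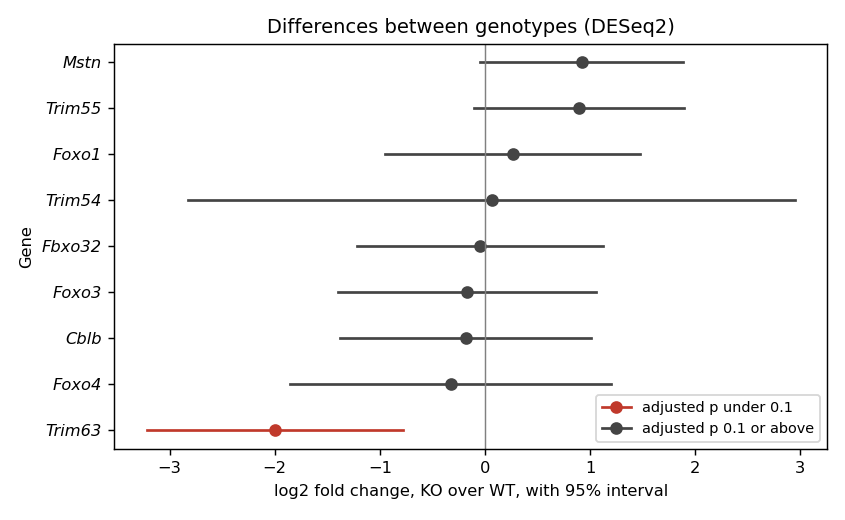
DESeq2 log2 fold changes, KO over WT, of the 9 genes with their 95% intervals; red marks an adjusted p under 0.1. The interval of Trim63, -3.22 to -0.78, stays below 0, and the intervals of the other 8 genes include 0.

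Fbxo32, which encodes the F-box protein atrogin-1, did not pass the test. It had 76.4 and 200.1 normalized counts in KO, and the WT values of 135 and 151 lay between them. The log2 fold change was -0.05 (SE 0.60, DESeq2 adjusted p 0.992) with a 95% interval from -1.22 to 1.12, so changes of over 2-fold lay within the interval. It had 9 sites on the minus strand of chromosome 15. No site lay within 1000 bases of the annotated start, and the main one, at 58178814 to 58179087, peaked 35930 bases into a gene of 39014 bases. That exonic site had 58 and 127 reads in KO against 36 and 78 in WT (log2 fold change 0.08, SE 0.83). The second, at 58180211 to 58180309, had 13 and 20 in KO against 5 and 21 in WT (log2 fold change -0.28, SE 1.34).

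The FoxO factors themselves did not pass the test in either direction. Foxo1 had 257 and 81.3 normalized counts in KO against 164 and 118 in WT, a log2 difference of 0.27 (SE 0.62). Foxo3 had 86.1 and 57.7 in KO against 95.4 and 67.3 in WT, a log2 difference of -0.17 (SE 0.63). Foxo4 had 23.8 and 50.7 in KO against 40.7 and 52.3 in WT, a log2 difference of -0.33 (SE 0.78). In all 3 genes the groups overlapped and the DESeq2 adjusted p was 0.988 to 0.992.

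The FoxO genes differed in where their reads began. Of the Foxo1 reads, 96.6% were intronic, from 16 of its 17 sites, and the other site was antisense to an exon. The site with most reads, at 52316409 to 52316411 of chromosome 3, was 48074 bases into the gene. It had 156 and 45 reads in KO, against 47 and 41 in WT (log2 fold change 0.35, SE 0.83). The second, at 52286096 to 52286134, had 61 and 12 against 13 and 4 (log2 fold change 1.19, SE 1.29). KO replicate 1 held 421 of the 726 Foxo1 reads and was the sole library with reads at 2 of the sites. Of the Foxo3 reads, 53.2% and 24.2% were intronic in KO against 67.6% and 25.9% in WT, high in replicate 1 of both groups, as in the libraries as a whole. Its main site lay in the last part of the gene on chromosome 10, at 42182710 to 42182778, where KO had 53 and 46 reads and WT 20 and 34 (log2 fold change 0.16, SE 0.91). The second site of Foxo3, intronic at 42231560 to 42231566, had 33 of its 48 reads in WT replicate 1. All 5 sites of Foxo4, on the X chromosome, were exonic, and 1 of them peaked 13 bases after the annotated start. Its largest, at 101259982 to 101260027, had 18 and 27 reads in KO against 13 and 17 in WT. After normalization these were 11.8 and 23.3 against 17.6 and 19.6 (log2 fold change -0.09, SE 1.17). The second, at 101254332 to 101254443, had 7 and 17 reads in KO against 13 and 6 in WT (-0.35, SE 1.48).

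Cblb, a ubiquitin ligase that acts on the insulin receptor substrate IRS1 in unloaded muscle, had 83.1 and 62.9 normalized counts in KO against 92.6 and 73.5 in WT. The groups overlapped (log2 difference -0.18, SE 0.61; adjusted p 0.992 by DESeq2). Its 17 sites lay along chromosome 16, 16 of them in introns, and no site held more than 12.3% of the reads. The largest, at 52075017 to 52075022, had 31 and 5 reads in KO against 5 and 0 in WT. The second, at 52196185 to 52196211, had 21 and 6 against 3 and 8. These reads are not scaled to library size, and the KO libraries were the larger ones. A site at 52064951 to 52064971 had no read in either KO library, against 4 and 10 in WT. Its unadjusted DESeq2 p was 0.0302 (log2 fold change -5.94, SE 2.74), and 4.05% of all sites had such a p under 0.05, but its mean was too low for adjustment. For Klf15, a glucocorticoid-induced factor, no site was listed, and the table held only sites with at least 10 reads over the 4 libraries.

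**Figure D4:**
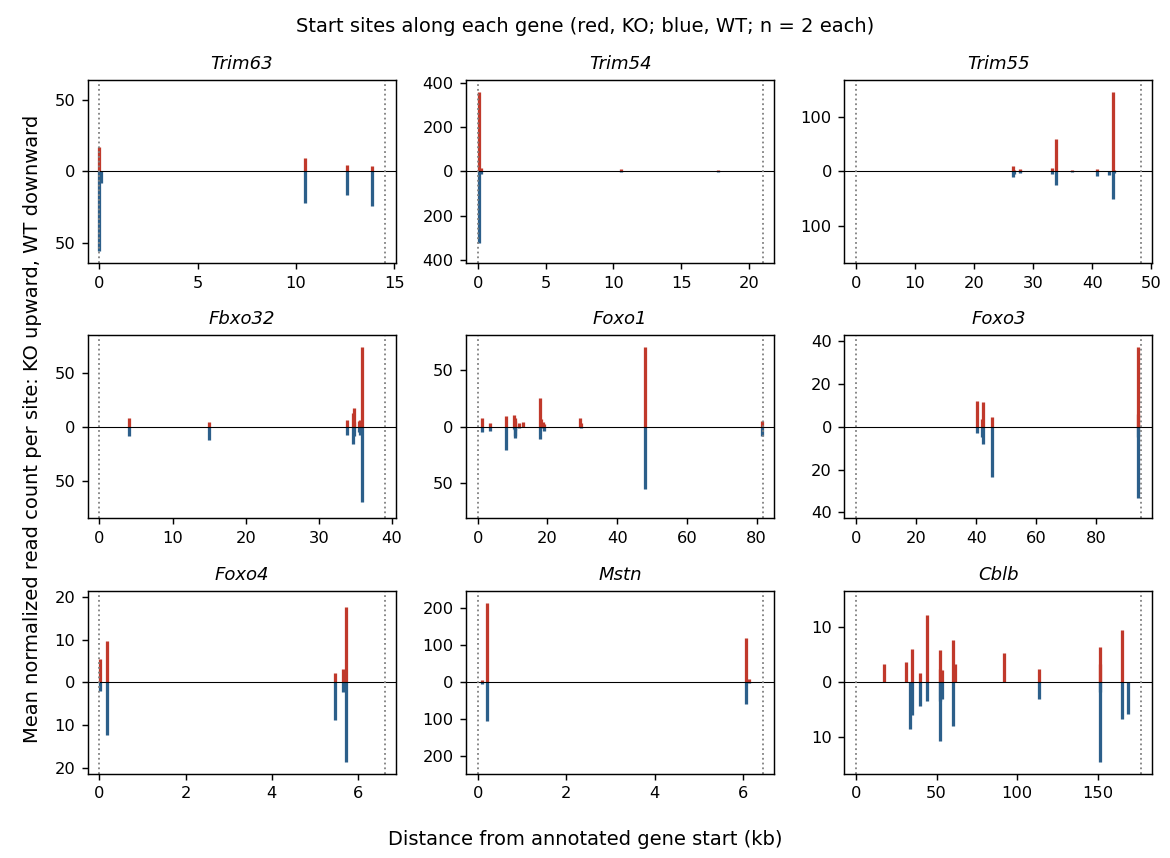
Mean normalized read count of each site against the distance of its peak from the annotated gene start in kb, with KO drawn upward in red and WT downward in blue (n = 2 each), and dotted lines at the ends of the gene. The reads of Trim54 sit at the start, those of Fbxo32 and Foxo3 peak near the end, and those of Cblb are spread over 17 sites.

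Among the sites of all members, 24 of 78 passed the DESeq2 filter on low counts and 0 were called, whereas 3.21% of all 11112 tested sites were. With edgeR, 0 of 25 were called, against 0.712% of all 11242, and the Cblb site above was the single member site with an unadjusted DESeq2 p under 0.05. Member sites had a median of 25 reads over the 4 libraries, against 19 for all sites, and 62.8% of them were intronic against 52.0% of all sites with a gene. Member sites with reads in all 4 libraries numbered 45, or 57.7% of them, against 49.8% of all sites with a gene. A site that peaked within 250 bases before to 50 bases after the annotated start was found in 2 of the 9 members, Trim63 and Foxo4, and in 8.39% of all 8882 genes that could be placed. The share of reads per site within a gene was tested in 8 members, and 0 were called, against 1.37% of the 2184 genes tested (diffSpliceDGE). Their smallest unadjusted p was 0.726, for Foxo1.

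The genes around the members were compared in the same fit. They were 62 genes in 4 lists, 56 with reads and 39 tested, and 0 were called by DESeq2 or edgeR, against 2.67% of all genes tested with DESeq2 and 0.883% with edgeR. An unadjusted DESeq2 p under 0.05 was found for 3 of them, Pdk4, Rictor and Per1, against 9.77% of all genes tested. The median log2 fold change of all genes tested was 0.01.

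Of the FoxO targets and other atrophy ligases, 14 were tested and 5 had a log2 fold change above 0, with a median of -0.22. Pdk4, a kinase that inhibits pyruvate dehydrogenase and a known FoxO target, had 311 and 350.4 normalized counts in KO against 478 and 1094 in WT. At a log2 fold change of -1.25 (SE 0.49), the lower KO values did not pass the test (DESeq2 adjusted p 0.237). Gadd45a, a stress gene raised in atrophy, had 16.5 and 28.0 in KO against 37.9 and 61.0 in WT (DESeq2 adjusted p 0.774). Sod2, the mitochondrial superoxide dismutase, had 44.6 and 14.9 in KO against 2.80 and 14.9 in WT (DESeq2 adjusted p 0.744).

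The insulin, IGF1 and AKT genes had a median of -0.02 over 11 genes. Rictor, a subunit of the kinase complex mTORC2 that phosphorylates AKT, had 29.3 and 38.4 normalized counts in KO against 67.3 and 102 in WT, giving a log2 fold change of -1.33 (SE 0.67) that did not pass (DESeq2 adjusted p 0.508). Pdpk1, the kinase PDK1 upstream of AKT, and Igf1r, the IGF1 receptor, had log2 fold changes of 0.87 (SE 0.65) and 0.63 (SE 0.49). Pdpk1 had 101 and 107 normalized counts in KO against 79.9 and 34.9 in WT. Igf1r had 1361 and 557 against 610 and 625, so KO replicate 2 was its lowest library. The myostatin and activin genes had a median of -0.16 over 7 genes. Among them, the receptor genes Tgfbr1 and Acvr1b had log2 fold changes of 0.93 (SE 0.81) and 0.96 (SE 0.87), and Fst, which encodes the myostatin-binding protein follistatin, had -1.28 (SE 1.14). The groups overlapped for Tgfbr1 (91.6 and 28.0 in KO against 26.6 and 36.1 in WT) and Acvr1b (31.8 and 104 against 56.1 and 13.7). Fst had 4.28 and 15.7 in KO against 16.8 and 31.1 in WT.

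The glucocorticoid receptor genes had the highest median, 0.81 over 7 genes, and 4 of them were above 0. This median was the value of Nr3c1, the gene of the receptor itself. Its groups overlapped, at 258 and 95.2 normalized counts in KO against 56.1 and 146 in WT. The 4 above 0 included Cebpd, described below, which rested on 1 library. Per1, a clock gene that glucocorticoids induce, had 48.3 and 204 normalized counts in KO against 18.2 and 34.9 in WT, and its log2 fold change of 2.24 (SE 0.78) had an adjusted p of 0.130 with DESeq2 and 0.259 with edgeR. Tsc22d3, which encodes the glucocorticoid-induced protein GILZ, had 218 and 148 in KO against 63.1 and 135 in WT, a difference of 0.89 on the log2 scale (SE 0.58, DESeq2 adjusted p 0.729). Hsp90ab1, a chaperone that holds the receptor, had 692 and 1088 in KO against 1336 and 1881 in WT (DESeq2 adjusted p 0.512). Cebpd, whose value lies farthest to the right in the plot by list, rested on KO replicate 2 with 86.5 normalized counts, since KO replicate 1 had 0, WT replicate 1 had 1.40 and WT replicate 2 had 0.

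**Figure D5:**
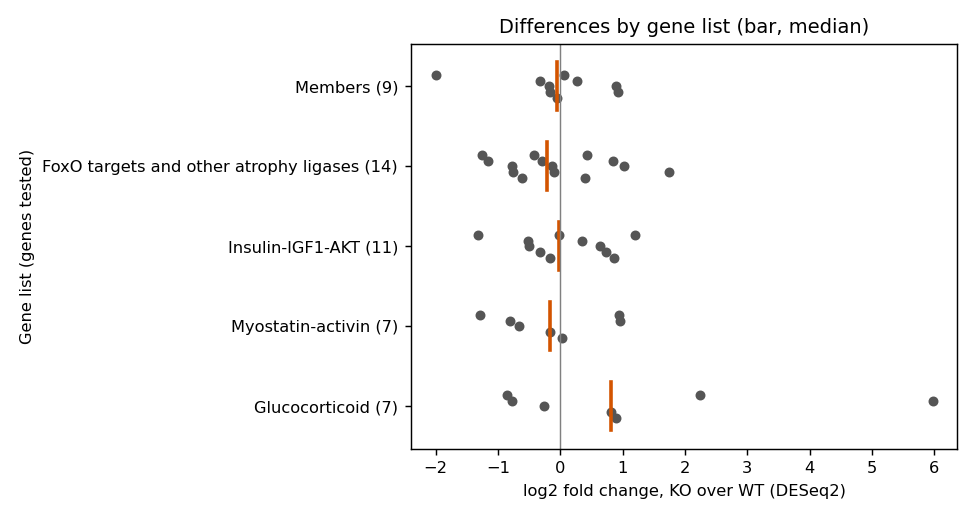
DESeq2 log2 fold changes, KO over WT, with 1 point per tested gene in each list and an orange bar at the list median. The medians run from -0.22 for FoxO targets and other atrophy ligases to 0.81 for the glucocorticoid list, and Trim63 is the lowest point of all.

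Markers of other cells were read beside these results. In whole muscle fewer cells of a type and less RNA per cell cannot be told apart. The fibroblast markers summed to 2852 and 2521 normalized counts in KO against 3768 and 3653 in WT. Of the 6 tested, 0 had a log2 fold change above 0 and 0 were called. Of all genes tested, 50.5% were above 0 and 2.67% were called. The slow fibre markers summed to 869 and 1146 in KO against 337 and 884 in WT, with 4 of 5 tested genes above 0 and 0 called, and Myl2 had no site. The fast and general muscle markers summed to 66214 and 78630.2 in KO against 61648 and 87046 in WT. Of the blood cell markers, 3 of 6 had reads, and they summed to 39.7 and 66.4 in KO against 174 and 76.0 in WT. Most of the WT replicate 1 sum was Ptprc, with 30.5 and 44.6 in KO against 147 and 48.6 in WT. Adipocyte markers summed to 5910.3 and 3015 in KO against 5913 and 3339 in WT, and endothelial markers to 297 and 324 in KO against 266 and 254 in WT. Nearly all of the adipocyte sum was Fabp4, with 5792 and 2861 in KO against 5720 and 3197 in WT. The Schwann cell and satellite cell lists were at or under 40.2 normalized counts in every library. The part of these cell types in the difference of Trim63 was not tested.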

How the data were processed

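Counts of reads per start site were deposited by the authors as 1 table of raw values for 4 libraries, without normalization. The submitters' processing notes name GRCm38.p5. The aligner, clustering and class code tool were described for sister libraries of 3′ ends, and whether the same settings were used here was not stated. A line of column totals was left out. Molecular identifiers were not described, so PCR copies count as reads.

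Here, sites and counts summed per symbol were compared between KO and WT with DESeq2 1.42.0 (R 4.3.3), following the study's methods, at a Benjamini-Hochberg adjusted p under 0.1 over all features, with independent filtering at a mean of 8.76 for sites and 16.5 for genes. Normalized counts are reads divided by DESeq2 size factors. edgeR 4.0.16 (quasi-likelihood test, TMM, filterByExpr) was run beside it, and diffSpliceDGE with the Simes method tested site usage. Fits were tested on simulated data. With 2 libraries a group, an exact permutation test cannot go below 0.333. Gene positions and promoters came from RefSeq (GRCm38.p6; 9262 of 9838 symbols matched), whose primary chromosomes have the same coordinates. Named genes were all members, the 2 largest sites of each, sites with an unadjusted p under 0.05, and the 3 genes with the smallest p of each pathway list. Members and lists were chosen with earlier results of these data known. Cebpd, Nr3c1, Fabp4 and Ptprc were named, and TATAAA searched, after the values and sequences were seen.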

Additional observations from a re-analysis of the deposited data

How the results depend on the processing

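Trim63 was lower in KO under every alternative that gave it a value, but its call depended on the setting. The count of members called fell from 1 to 0 with edgeR (Trim63 log2 fold change -2.02, adjusted p 0.166), without independent filtering (-2.001, 0.122), with the replicate number as a block (replicate block, -1.96, 0.155), at a threshold of 0.05 (-2.001, 0.0797), without intronic sites (-1.76, 0.179) and with intronic sites alone, a setting chosen after seeing the data in which Trim63 has no reads. Trim63 has no intronic site, so leaving out introns changed its value through the scaling and the genes tested. With 1 library left out at a time, which leaves the spread to the other group, the count was 0 to 0 and the log2 fold change ran from -2.32 to -1.61. TMM, scaling by reads outside mitochondrial and ribosomal RNA, a minimum of 20 reads per site, leaving out antisense sites and sites outside genes, and primary chromosomes only kept the call.

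Replicate numbers are shared between groups, but deviations of same-numbered libraries correlated at 0.0716 over 5821 genes. The main fit used no pairing. A value over many genes cannot decide this for single features. Trim54 and the share of intronic reads were split by replicate number in both groups. With the block, 95 genes were called against 125.

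The differences of the members with reads other than Trim63 and Mstn, none of them called, changed sign in some setting. Trim54 was -0.058 with scaling by nuclear reads and ran from -1.36 to 2.10 with 1 library left out. With the replicate block, Trim54 was 0.31 (SE 0.48, against 1.47 in the main fit) and was not called. Without intronic sites, Trim55 was -0.36, Fbxo32 0.24 and Foxo3 0.30, each on fewer reads. Foxo1 was then -0.78 (SE 1.78) on its antisense site alone, which had 25 reads. Cblb was 3.999 (SE 3.90) on 1 site with 10 reads, all of them in KO replicate 1. Leaving out 1 library gave -0.89 to 0.50 for Fbxo32, -0.79 to 0.88 for Foxo1, -0.49 to 0.10 for Foxo3, -0.96 to 0.13 for Foxo4 and -0.39 to 0.012 for Cblb. Of the pathway genes, 1 was called with a minimum of 20 reads per site (Per1), and 0 to 1 with 1 library left out (Cebpd without KO replicate 1, Pdk4 without WT replicate 1). Member sites and site usage stayed at 0 calls in all alternatives run. With a window of 1000 bases on either side of the start, 4 members had a site peaking there against 2. Most member sites were too low for an adjusted p.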
